A study of Homo sapiens with 4 samples.

Results

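Angiomotins and AJUBA are scaffold proteins that restrain or relay the Hippo pathway, and ANKRD1 is a nuclear ankyrin repeat protein whose gene is widely used as a readout of that pathway. The genes described here are AMOT, AMOTL1, AMOTL2, AJUBA and ANKRD1. They were picked by name, with earlier results of these data known, and all 5 are among the 2864 genes with values in the table used here. RNA was sequenced from A375 cells, a human melanoma cell line with an activating BRAF mutation, in 4 libraries with 1 library per condition. A375P were untreated parental cells. A375R was a resistant strain that the study raised from A375 with stepwise higher doses of vemurafenib, an inhibitor of the BRAF kinase, and the label has the strain under the drug continuously. A375+DMSO and A375+VEM were A375 cells kept for 48 h with 1‰ DMSO, the solvent, or with 2 μM vemurafenib. All 4 were wild type in genotype by their labels and grew in the same medium with serum, and nothing shows whether A375R descends from a single clone.

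The Hippo pathway is a kinase cascade that ends in LATS kinases, which phosphorylate the transcriptional coactivators YAP and TAZ and hold them in the cytoplasm. Without that phosphorylation YAP and TAZ enter the nucleus and switch on genes together with TEAD transcription factors. Angiomotins bind F-actin and cell junctions, tether YAP in the cytoplasm and stimulate LATS, while AJUBA is a LIM-domain protein that binds LATS at junctions under tension and limits it. AMOTL2, AJUBA and ANKRD1 are themselves known target genes of YAP and TAZ, so AMOTL2 also takes part in negative feedback on the pathway.

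The TEAD factors bind the M-CAT element, whose core is GGAATG, and the members were therefore read for these letters just upstream of their start sites. RefSeq promoter windows (GRCh38.p14) were found for all 5 genes, 7 windows in all, since AMOTL2 and AJUBA have 2 start sites each in that table. GGAATG on either strand occurred in 3 of the 7 windows when the 250 bases before the start site were searched, in 1 window each of AMOTL2, AJUBA and ANKRD1. The same letters occurred in 11.9% of all 35116 windows of this length. The AP-1-like pattern TGANTCA, in which N was allowed to be any base, reads the same on both strands as a pattern. It was found, as TGATTCA, in the ANKRD1 window and in none of the other 6. With any base at N, it was found in 6.57% of all windows. The windows with GGAATG are printed 5′ to 3′ along the gene, with GGAATG, its other strand CATTCC and TGANTCA in capitals. They show where these letters lie in these windows.
ANKRD1, chr10:90921088-90921337, minus strand: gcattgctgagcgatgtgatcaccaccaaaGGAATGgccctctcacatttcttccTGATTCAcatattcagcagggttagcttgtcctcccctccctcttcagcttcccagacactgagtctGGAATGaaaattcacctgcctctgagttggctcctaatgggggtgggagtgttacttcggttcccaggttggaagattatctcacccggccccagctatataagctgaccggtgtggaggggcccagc
AMOTL2, chr3:134374448-134374697, minus strand, the downstream start site: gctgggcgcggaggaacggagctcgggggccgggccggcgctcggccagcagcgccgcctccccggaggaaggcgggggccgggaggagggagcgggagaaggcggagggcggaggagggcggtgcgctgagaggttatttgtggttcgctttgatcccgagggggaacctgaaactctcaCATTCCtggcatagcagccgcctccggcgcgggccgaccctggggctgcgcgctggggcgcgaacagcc
AJUBA, chr14:22976843-22977092, minus strand, the downstream start site: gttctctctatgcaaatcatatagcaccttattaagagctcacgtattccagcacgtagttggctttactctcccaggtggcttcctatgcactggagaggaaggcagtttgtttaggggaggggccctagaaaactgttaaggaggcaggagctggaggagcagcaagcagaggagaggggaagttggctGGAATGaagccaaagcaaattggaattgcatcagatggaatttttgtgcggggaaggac
In ANKRD1 the matches to GGAATG begin at positions -220 and -128 from the start site, and the match to TGANTCA begins at -195, so none of these overlaps another. In AMOTL2 the match lies on the opposite strand and begins at -69, and in AJUBA it begins at -59. The windows of AMOT and AMOTL1 held neither pattern of letters, and nor did those at the upstream start sites of AMOTL2 and AJUBA. Which start site these cells use was not tested. A match of letters is a description of the window and not a measured binding site.

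For each gene the authors deposited the number of reads and the TPM, the count per gene length scaled to a fixed total per library, so that levels of different genes can be set side by side. The reads in the table summed to between 1891215 and 2054277 per library and its TPM to between 8.48% and 8.94% of a library, because only genes from the start of the alphabet were at hand, and the full depth is unknown. In each comparison a gene was compared where either library reached a TPM of 1, and it was called higher or lower past 1.5-fold on the scale of log2(TPM + 0.1). Conditions with 1 library have no replicate error and were not tested against each other. The intervals printed are exact Clopper-Pearson 95% intervals on reads and cover counting error only. Of the markers of other cell types read in these libraries, 4 immune and 2 erythroid genes were below a TPM of 1 in all 4 libraries. Of 4 genes linked to pigment cells, 3 were above it in all 4, and ABCB5 was below it.

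**Figure D1:**
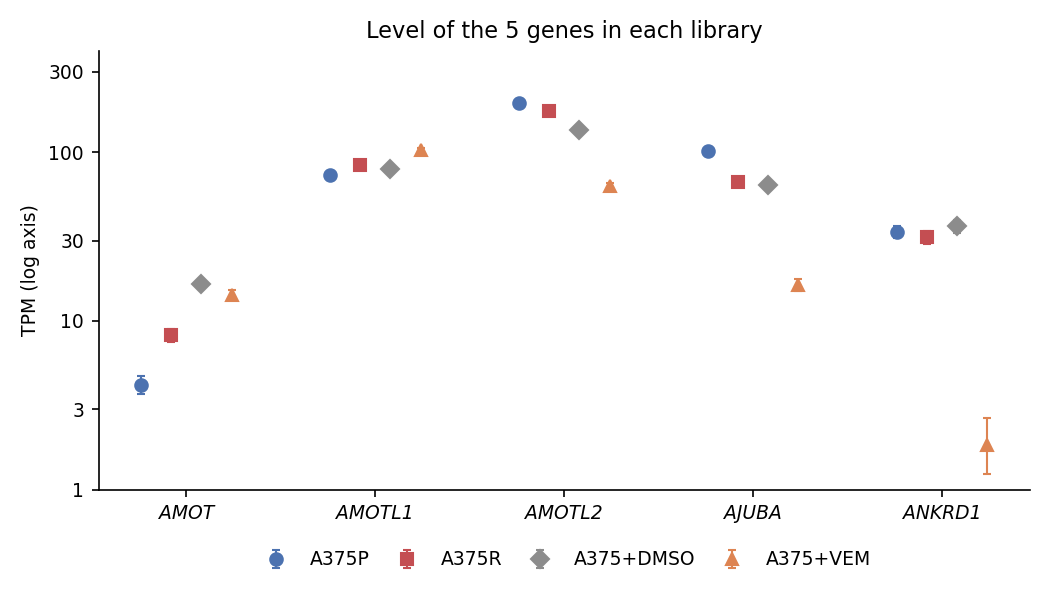
TPM on a log axis for each of the 5 genes in the 4 libraries. Points are single libraries and bars are exact Poisson 95% intervals on the reads, which are narrower than most symbols. ANKRD1, AJUBA and AMOTL2 are lowest in A375+VEM, AMOTL1 is highest there, and AMOT is lowest in A375P.

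The largest difference among the 5 genes was that of ANKRD1 under short exposure to vemurafenib. ANKRD1 (chromosome 10, 92671857 to 92681032, minus strand, in the table's coordinates) encodes a protein of muscle and stressed cells that acts in the nucleus and the sarcomere. It had 572 reads (TPM 33.8) in A375P, 574 reads (TPM 36.4) in A375+DMSO, 480 reads (TPM 31.4) in A375R and 29 reads (TPM 1.85) in A375+VEM. The level was thus low in A375+VEM alone, and the other 3 libraries lay close together. Ordered by level, A375+DMSO and A375P differed by less than counting error (ratio 1.08, 95% interval 0.956 to 1.21), as did A375P and A375R (ratio 1.08, interval 0.952 to 1.22). A375R was 0.864 of A375+DMSO, with an interval from 0.764 to 0.977. Against A375+DMSO, ANKRD1 was 19.7-fold lower in A375+VEM (95% interval 13.5 to 29.6) and 17.0-fold lower than in A375R (95% interval 11.7 to 25.6). Of the 1784 genes with a ratio for the acute pair, 11 had a lower value. Whether fewer cells carried the RNA or each cell carried less cannot be told apart in these bulk libraries.

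AJUBA (chromosome 14, 23440383 to 23451851, minus strand) was also lowest in A375+VEM, with a smaller ratio. It had 4512 reads (TPM 101) in A375P, 2674 (TPM 64.3) in A375+DMSO, 2666 (TPM 66.3) in A375R and 675 (TPM 16.4) in A375+VEM. A375P was the highest library, A375R and A375+DMSO were in the middle and A375+VEM was the lowest. The middle libraries differed by less than counting error (ratio 1.03, interval 0.976 to 1.09). From A375+DMSO to A375+VEM the level was 3.93-fold lower (95% interval 3.61 to 4.29). It was 1.53-fold lower in A375R than in A375P (95% interval 1.46 to 1.60), which is just past the threshold, and 1.57-fold lower in A375+DMSO than in A375P (95% interval 1.501 to 1.65). The lower value in A375R therefore held against A375P and not against A375+DMSO.

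AMOTL2 (chromosome 3, 134074187 to 134094259, minus strand), an angiomotin found at junctions, was the most abundant of the 5 genes in every library but A375+VEM. Its reads were 8823 (TPM 197) in A375P, 5645 (TPM 135) in A375+DMSO, 7103 (TPM 175) in A375R and 2635 (TPM 63.3) in A375+VEM. By level the order was A375P, A375R, A375+DMSO and A375+VEM, and each step down was beyond counting error, the smallest being that from A375P to A375R (ratio 1.12, interval 1.09 to 1.16). In A375+VEM its level was 2.13-fold below that of A375+DMSO (95% interval 2.03 to 2.23). A375+DMSO was 1.46-fold below A375P (95% interval 1.41 to 1.51), which did not reach the threshold as deposited and did so, at a log2 ratio of -0.64, when ratios were scaled to a median of 1. The same libraries in which AMOTL2 and AJUBA were below A375P also had less ACTA2, a marker of fibroblasts that other cells express too. Among these libraries the order was not shared. A375+VEM, the lowest in AMOTL2 and AJUBA, had the most ACTA2 of them (TPM 40.1). The least was found with A375+DMSO (TPM 28.3), while A375R lay between (TPM 35.0). The fibroblast list (ACTA2 and ASPN) summed to a TPM of 92.4 in A375P and to between 28.4 and 40.1 in the other 3 libraries, with ASPN below a TPM of 1 in all 4, and its part in these differences was not tested.

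AMOTL1 (chromosome 11, 94501508 to 94609918, plus strand), the related angiomotin, had the narrowest range of the 5 genes. It had 5675 reads (TPM 73.6) in A375P, 5736 (TPM 79.7) in A375+DMSO, 5866 (TPM 84.2) in A375R and 7423 (TPM 104) in A375+VEM. In A375+VEM the level was 1.30-fold that of A375+DMSO (95% interval 1.26 to 1.35), beyond counting error and within the threshold. The highest and lowest libraries differed 1.41-fold, and 86.0% of the 1817 genes that reached a TPM of 1 in any library spanned a wider range, while 3.63% spanned a wider range than ANKRD1.

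AMOT (chromosome X, 112018105 to 112084043, minus strand), the founding angiomotin, made as a long form that binds actin and YAP and a short form without that part, was the least abundant angiomotin. The counts are per gene and do not separate the forms. AMOT had 263 reads (TPM 4.15) in A375P, 978 (TPM 16.6) in A375+DMSO, 470 (TPM 8.22) in A375R and 836 (TPM 14.3) in A375+VEM. A375P was the lowest library, A375R lay above it and the 48 h cultures were the highest, and each step in this order of levels was beyond counting error. A375+VEM was 0.861 of A375+DMSO (95% interval 0.784 to 0.945). The level in A375R was 1.98-fold that of A375P (95% interval 1.70 to 2.31), but 2.01-fold lower than in A375+DMSO (95% interval 1.80 to 2.25). Between the cultures without vemurafenib it was 3.99-fold higher in A375+DMSO than in A375P (95% interval 3.47 to 4.58), the largest ratio of AMOT in any comparison.

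**Figure D2:**
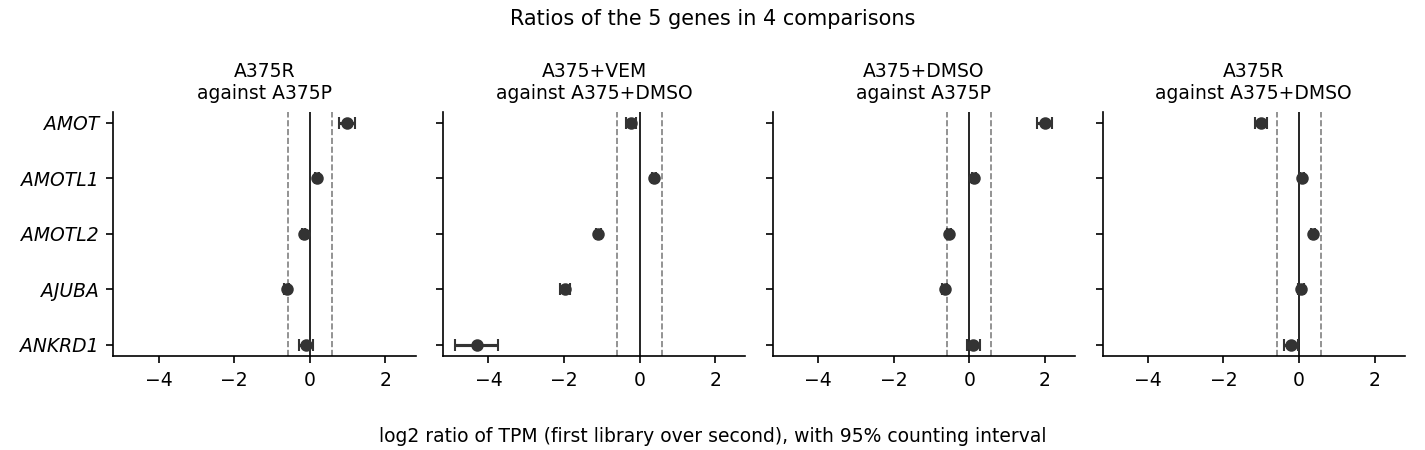
Log2 ratio of TPM for the 5 genes in 4 comparisons, with exact 95% counting intervals as bars, 0 as a solid line and 1.5-fold as dashed lines. In A375+VEM against A375+DMSO, ANKRD1, AJUBA and AMOTL2 lie left of the threshold, while AMOT changes side between A375R against A375P and A375R against A375+DMSO.

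Taking the 5 genes by comparison, 3 were called lower in A375+VEM than in A375+DMSO and none higher. Among all 1784 genes compared, 19.7% were lower, 26.5% were higher and 46.2% were past the threshold in either direction. The median log2 ratio of the 5 genes was -1.09, beside 0.11 over all genes compared. Against A375P in place of A375+DMSO the same 3 genes were lower in A375+VEM, by 18.3-fold for ANKRD1, 6.19-fold for AJUBA and 3.10-fold for AMOTL2, and AMOT was 3.43-fold higher. In that comparison 62.1% of 1782 genes were past the threshold, 36.9% higher and 25.3% lower.

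Between A375R and A375P, AMOT was called higher and AJUBA lower, 2 of 5 genes, where 44.3% of 1689 genes were past the threshold, 26.8% higher and 17.5% lower. The median log2 ratio of the 5 genes was -0.11, beside 0.10 over all genes. Between A375R and A375+DMSO, AMOT was the 1 gene of 5 called, and it was lower, where 20.5% of 1702 genes were past the threshold, 10.5% higher and 9.99% lower. The cultures without vemurafenib differed in as many of the genes as the resistant pair did. From A375P to A375+DMSO, AMOT was higher and AJUBA lower, 2 of 5, beside 45.7% of 1720 genes, with 26.8% higher and 18.9% lower. These comparisons share libraries, so their values are not independent of each other.

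**Figure D3:**
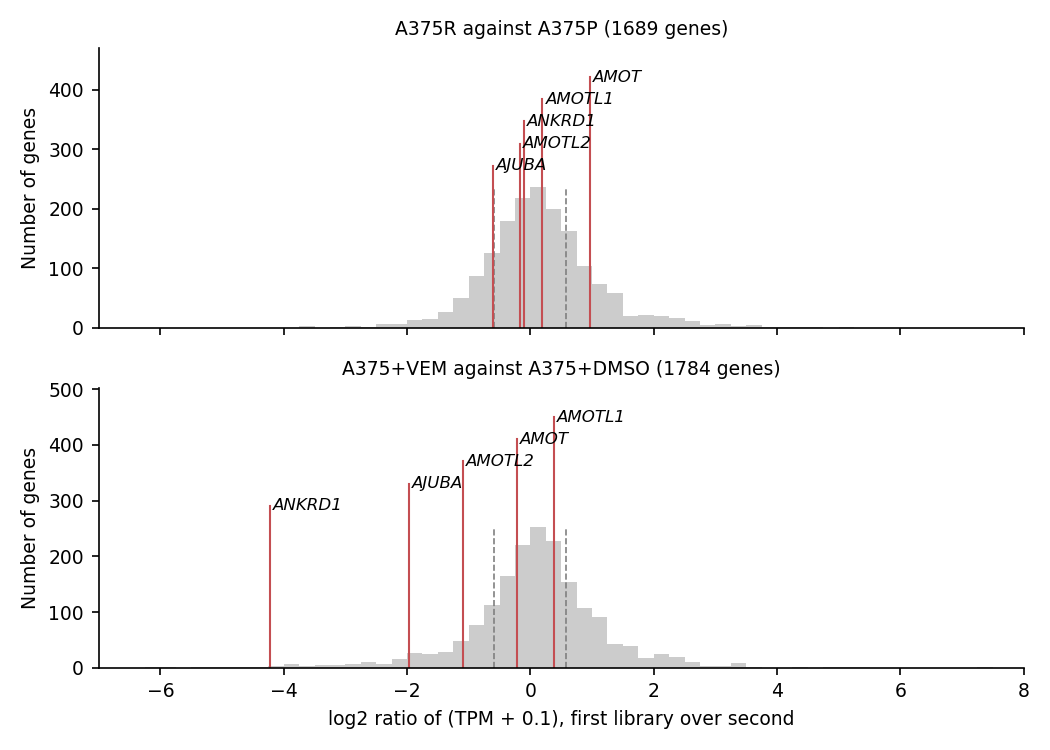
Number of genes by log2 ratio of (TPM + 0.1) for A375R against A375P (top) and A375+VEM against A375+DMSO (bottom), with the 5 genes as red lines and 1.5-fold as dashed lines. In the upper panel the 5 genes lie between -0.61 and 0.97, inside the bulk of the genes, and in the lower panel ANKRD1 is at -4.22 and AJUBA at -1.97, in the lower tail.

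The makeup of angiomotin RNA differed between libraries. The TPM of AMOT, AMOTL1 and AMOTL2 summed to 274 in A375P, 231 in A375+DMSO, 268 in A375R and 181 in A375+VEM. AMOTL2 made up 71.7% of that sum in A375P, 58.3% in A375+DMSO, 65.5% in A375R and 34.9% in A375+VEM. The share of AMOTL1 was lowest in A375P, at 26.8%, and highest in A375+VEM, at 57.2%. The share of AMOT was 1.51% in A375P, 7.17% in A375+DMSO, 3.07% in A375R and 7.85% in A375+VEM. Within a library, the level of AMOTL2 per length was 47.3 times that of AMOT in A375P (95% interval 41.8 to 53.7) and 21.3 times in A375R (95% interval 19.4 to 23.4). The same ratio was 8.14 in A375+DMSO (95% interval 7.60 to 8.72) and 4.44 in A375+VEM (95% interval 4.11 to 4.81). The order of the more abundant pair was turned in A375+VEM, where AMOTL1 was 1.64 times AMOTL2 (95% interval 1.57 to 1.71), against 0.374 in A375P, 0.481 in A375R and 0.591 in A375+DMSO. The ratio of AMOTL1 to AMOTL2 was chosen after its values were seen.

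**Figure D4:**
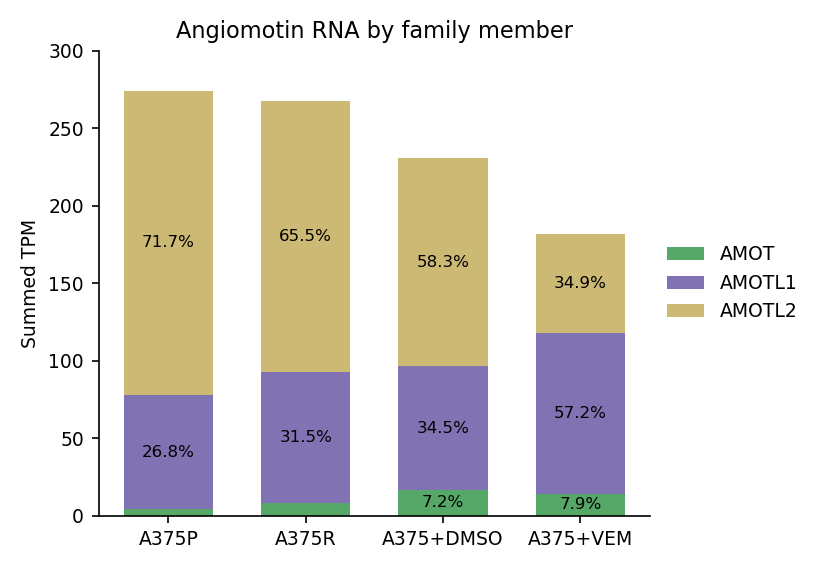
Summed TPM of the 3 angiomotin genes in each library, as stacked bars from 0, with the share of AMOT where its bar is tall enough to carry a label and of AMOTL1 and AMOTL2 in all bars. AMOTL2 is the largest part in A375P, A375R and A375+DMSO, and AMOTL1 is the largest part in A375+VEM.

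Other genes of the pathway in the table were read from lists of known targets, relatives and partners, and further pathway genes. These lists were chosen with earlier results of these data known. Of 7 further YAP/TAZ target genes, 5 were lower in A375+VEM than in A375+DMSO and none was higher, beside 19.7% lower and 26.5% higher of all genes compared. Their median log2 ratio was -1.88, beside 0.11 over all genes. BIRC5, which encodes the survival and cell division protein survivin, went from 1398 to 18 reads, 77.1-fold lower (95% interval 48.6 to 131). AREG, an EGFR ligand, had 85 reads in A375+DMSO and 1 in A375+VEM, a ratio of 0.0118 with an interval from 0.000297 to 0.0678. AXL, a receptor tyrosine kinase, was 3.88-fold lower (95% interval 3.74 to 4.02) and ARHGAP29 was 3.75-fold lower (95% interval 3.32 to 4.24). BCL2L1, whose product BCL-XL protects from apoptosis, was the fifth, at 2.50-fold lower. ASAP1 and ARHGEF17 were within the threshold, at log2 ratios of -0.07 and 0.35.

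In A375R against A375P, 2 of these 7 targets were higher and none was lower, a share near the 26.8% of all genes that were higher. Their median log2 ratio was -0.02, beside 0.10 over all genes. ARHGAP29 had 977 reads in A375P and 2994 in A375R, 3.39-fold higher (95% interval 3.16 to 3.65), and 2.44-fold higher than in A375+DMSO (95% interval 2.28 to 2.60). AREG in A375R was at 3.25 times its level in A375P (95% interval 2.52 to 4.24) and 2.89 times that in A375+DMSO. AXL was the third target called higher against A375+DMSO, at 1.60-fold, but it was at 0.872 of A375P. Thus 3 of 7 targets were higher and none lower in A375R against A375+DMSO, beside 10.5% and 9.99% of all genes, with a median log2 ratio of 0.49 beside 0.02. ANKRD1 and AJUBA were within the threshold against A375+DMSO, as was AMOTL2, which stood at 1.30 times that library (95% interval 1.25 to 1.35).

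Among 6 relatives and partners, 5 reached a TPM of 1 in A375+VEM or A375+DMSO, of which 3 were lower in A375+VEM and 1 was higher, beside 19.7% and 26.5% of all genes. AURKA, the mitotic kinase that AJUBA binds and activates, had 1890 reads in A375+DMSO and 134 in A375+VEM, 14.0-fold lower (95% interval 11.8 to 16.8). The cytoplasmic actins ACTG1 and ACTB, which form the filaments that angiomotins bind, were at log2 ratios of -0.79 and -0.62. ANKRD23, of the same muscle ankyrin repeat family as ANKRD1, went the other way, from 70 to 203 reads (2.92-fold higher, 95% interval 2.22 to 3.89). ANKRD2, the remaining relative, had between 1 and 12 reads per library and was not compared. None of the 5 genes compared between A375R and A375P was past the threshold.

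Of 20 further pathway genes, mostly of the Wnt, BMP and apoptosis branches, 17 were compared between A375R and A375P, with 4 higher and 6 lower, beside 26.8% and 17.5% of all genes. In A375+VEM against A375+DMSO 18 were compared, with 1 higher and 6 lower, beside 26.5% and 19.7%. Between the cultures without vemurafenib, 1 of 18 was higher in A375+DMSO than in A375P and 6 were lower, beside 26.8% and 18.9%. In A375R against A375+DMSO 5 of 17 were higher and 2 lower, beside 10.5% and 9.99%. The ligand BMP2 and the inhibitor of apoptosis BIRC3 stood highest of the list in A375R, at log2 ratios of 1.28 and 1.46 against A375P. AMH and AFP were the lowest in that comparison, at -1.995 and -1.88, although AFP had 5 reads in A375R. AMH was also at -1.61 in A375+DMSO against A375P, and within the threshold at -0.39 in A375R against A375+DMSO. For AFP these values were 0.04 and -1.92. In A375+VEM the scaffold gene APC2 was at 1.70, BMP7 at -2.12, BMP4 at -1.62 and AFP at -1.40. The median log2 ratio of this list was -0.28 in A375R against A375P and -0.20 in A375+VEM against A375+DMSO.

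**Figure D5:**
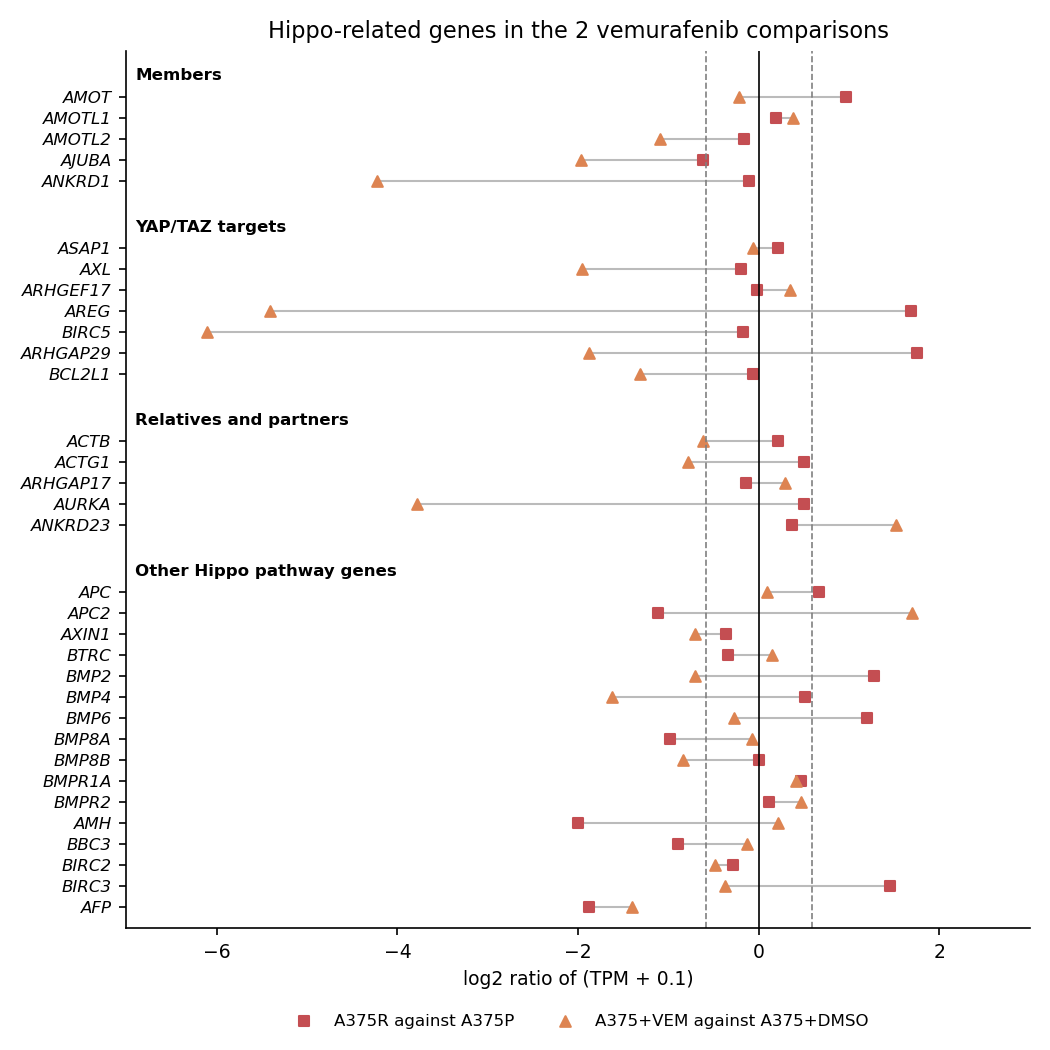
Log2 ratio of (TPM + 0.1) for the 5 genes and the listed pathway genes, as squares for A375R against A375P and triangles for A375+VEM against A375+DMSO, with 1.5-fold as dashed lines. Genes below a TPM of 1 in either pair are left out, and the triangles of 5 of 7 YAP/TAZ targets lie left of the threshold while none of their squares does.

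Likeness of pattern was measured over the 4 libraries as the root mean square difference of log2(TPM + 0.1) after centring each gene on its mean, among protein-coding genes that reached a TPM of 1. Among the members themselves AMOTL2 and AJUBA were the closest pair, at 0.39, and AMOT and ANKRD1 the farthest, at 2.22. The genes nearest to ANKRD1 were ADM2, the peptide hormone adrenomedullin 2, at 0.22 and ASNS, asparagine synthetase, at 0.26. ADM2 had 1199 reads in A375P, 1190 in A375+DMSO, 1345 in A375R and 53 in A375+VEM. For AJUBA the nearest were the peptide gene APLN at 0.12, with 6 to 66 reads per library, and C4orf32 at 0.12. C15orf61 at 0.10 and C4orf36 at 0.11 were nearest to AMOTL2, the last of these with 3 to 13 reads. AMOTL1 was nearest to AP3B1, a subunit of a vesicle adaptor, and to BECN1, the autophagy protein beclin, both at 0.04. AMOT was nearest to C20orf96 at 0.13 and to AKR1E2 at 0.18, which had between 2 and 14 reads. With 4 libraries many genes have similar patterns, and the median gene was at 1.86 from ANKRD1, 1.09 from AJUBA and 0.47 from AMOTL1.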

How the data were processed

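The 4 conditions were sequenced with 1 RNA library each and grouped by the sample titles. The authors deposited whole-number counts per gene without normalization, and TPM, which the authors scaled over the whole library. The submitters' processing notes list HISAT2, TopHat2, Bowtie2 and HISAT and the build hg19, with no roles; the counting program and its use of strand are not given in the sources used here. Gene positions are those of the table, while promoter windows are on GRCh38.p14. Only genes from the start of the alphabet were at hand, and 1 incomplete row was left out.

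Ratios used a pseudocount of 0.1 on TPM, a TPM of at least 1 as the filter and 1.5-fold as the threshold. The ratio step, its intervals and the motif search were tested on simulated data. In GENCODE v29, AJUBA overlaps the protein-coding gene AL132780.3 on its own strand by 11085 bases. On their own strand AMOTL2 overlaps RPL39P5 by 688 bases and MIR6827 by 59, and AMOT overlaps MIR4329 by 71. AMOTL1 overlaps AP000943.3 by 33925 bases and AP002383.2 by 2702 on the other strand. The reads of these members could therefore include those of their neighbours.

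The members and lists were chosen with earlier results of these data known. The rule for names took all 5 members, the 2 most similar protein-coding genes of each, and of each list at most the 4 farthest past the threshold in either vemurafenib comparison. BCL2L1, ASAP1, ARHGEF17, ARHGAP17, ANKRD2 and the AMOTL1 to AMOTL2 ratio were added after their values were seen. Alternatives were pseudocounts of 1 and 0.01, no filter, a TPM of at least 5, a 2-fold threshold, scaling to a median ratio of 1, TMM scaling of the counts and A375P as the control of A375+VEM. The tools were edgeR 4.0.16 in R 4.3.3, for TMM factors only, and matplotlib 3.10.9, pandas 2.3.3, scipy 1.17.1 and numpy 2.4.6 in Python 3.11.15.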

Additional observations from a re-analysis of the deposited data

Results flagged for a closer look

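Some genes lay in opposite directions in A375R against A375P and in A375+VEM against A375+DMSO, with each counting interval on its own side of 1. Whether the comparisons differ was not tested. The share of all genes in the table that met this rule was not counted, so the genes named here have no background beside them. Of the 5 members this held for AMOT, at log2 ratios of 0.97 and -0.21, of which the last is within 1.5-fold.

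Of the listed pathway genes, AREG was at 1.69 and -5.41, ARHGAP29 at 1.75 and -1.88, BMP2 at 1.28 and -0.70, and BIRC3 at 1.46 and -0.37. AURKA was at 0.50 and -3.79, ACTG1 at 0.51 and -0.79, and ACTB at 0.21 and -0.62. For AURKA, ACTG1 and ACTB the first value was within 1.5-fold, and for BIRC3 the second was. APC2, at -1.11 and 1.70, and ARHGAP17, at -0.14 and 0.29 and so within 1.5-fold in both, had the reverse order.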

How the results depend on the processing

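No paired analysis was possible because each condition has 1 library. For the same reason there was no replicate to leave out. No log2 ratio of a member that was past 1.5-fold changed sign or came back within it under another pseudocount or scaling, or with A375P as the control of A375+VEM. AMOTL2 in A375+DMSO against A375P passed 1.5-fold under the scalings. AMOT in A375+VEM, at -0.21 against A375+DMSO, was at 1.75 with A375P as the control, so its sign changed and it passed 1.5-fold.

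Scaling to a median ratio of 1, which lowers all log2 ratios of a comparison alike by up to 0.11, gave, with A375R set against A375P, 0.10 for AMOTL1, -0.26 for AMOTL2 and -0.71 for AJUBA. It gave 0.28 for AMOTL1 and -1.19 for AMOTL2 in A375+VEM against A375+DMSO, and 0.022 for AMOTL1, -0.64 for AMOTL2 and -0.75 for AJUBA in A375+DMSO against A375P. TMM scaling gave 0.12, -0.24 and -0.69 for AMOTL1, AMOTL2 and AJUBA in the resistant pair, and 0.039, -0.62 and -0.73 in A375+DMSO against A375P. In the acute pair it gave -0.36 for AMOT, 0.23 for AMOTL1, -1.24 for AMOTL2 and -2.12 for AJUBA. A pseudocount of 1 gave 1.77 for AMOT in A375+DMSO against A375P. With A375P as the control, A375+VEM was at 1.75 for AMOT, 0.50 for AMOTL1, -1.63 for AMOTL2 and -2.62 for AJUBA.

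Over all genes, taking A375R against A375P first, then A375+VEM against A375+DMSO, then A375+DMSO against A375P and last A375R against A375+DMSO, 748, 825, 786 and 349 genes were past 1.5-fold. Without the filter, which admits all 2864 genes, these were 1237, 1282, 1266 and 818. At 2-fold, stricter by construction, the shares past the threshold were 22.2%, 26.4%, 25.99% and 8.64%. At a TPM of at least 5 the last count was 207 of 1340 genes. At 2-fold, 0 members were past the threshold in A375R against A375P and 1 in A375+DMSO against A375P, which was AMOT. Depth limits ratios that rest on few reads, among them those of ANKRD1 with 29, BIRC5 with 18 and AREG with 1 read in A375+VEM, and of AFP with 5 reads in A375R.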
